A study of Mus musculus with 30 samples.

Results

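The interleukin 6 family comprises small cytokines that signal through one shared receptor chain. The 8 transcripts followed here were matched by Ensembl identifier and symbol among the 50764 gene models of the deposited tables. They encode 4 cytokines (Il6, Lif, Il11 and Osm) and 4 receptor chains (Il6ra, Il6st, Osmr and Lifr), and all 8 were found and passed the filter on low counts in every fit. Mouse macrophages and stromal cells were profiled by RNA sequencing, in 30 libraries that formed 10 groups of 3. The labels name the macrophages LCM and the design text gives their sort marker as F4/80. The stromal cells were sorted on podoplanin (PDPN+) and labelled om, and are called PDPN+ cells below.

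The PDPN+ groups were cells with 1 µM BMS493, cells from co-culture with macrophages, cells from transwell culture with macrophages, and cells cultured alone. The macrophage groups were cells with 1 µM BMS493, cells from co-culture with PDPN+ cells, cells from transwell culture, cells with 1 µM ATRA, untreated cells cultured alone, and cells taken ex vivo from a lavage. ATRA is all-trans retinoic acid, the active form of vitamin A. BMS493 lowers signalling by retinoic acid receptors, as their inverse agonist. Which cells shared the BMS493 wells is not stated, so those libraries were set against both co-culture and culture alone. Against culture alone, an effect of BMS493 cannot be told apart from one of partner cells. The sources used here give no strain, age or culture time, and do not say whether replicates came from separate animals. The p-values therefore measure only the spread between these libraries, which may be technical.

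As background, the receptors of these cytokines all contain Il6st (gp130), the common signal transducer, which activates JAK kinases and the transcription factor STAT3. Il6 and Il11 pair gp130 with a ligand-specific alpha chain (Il6ra for Il6), Lif pairs it with Lifr, and mouse Osm binds gp130 and acts mainly through Osmr with it. Macrophages are a well-known source of oncostatin M, the product of Osm, and fibroblasts and mesothelial cells are well-known responders to it. Fibroblasts also make interleukin 6 when stimulated by interleukin 1 or tumour necrosis factor.

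Total counts ranged from 29350158 to 54099085 per library. Levels are given as CPM, counts over the library total after scaling for library composition, in the order of the 3 batches of the labels, numbered 1 to 3 as the replicates are. The 12 macrophage markers separated the labelled cell types: they summed to 62940 to 238480 CPM in macrophage libraries and to 86.4 to 140 CPM in PDPN+ cells cultured alone. In the other PDPN+ libraries they summed to 1676.5 to 3856.8 CPM with BMS493, 1721 to 2450 CPM in co-culture and 107 to 647 CPM in transwell. The 12 fibroblast markers did not separate PDPN+ cells from ex vivo macrophages, with sums of 25352, 29192 and 8130 CPM in PDPN+ cells alone and of 17021, 28657 and 19204 CPM ex vivo. Nearly all of the ex vivo sum was Fn1, the fibronectin gene (17011, 28657 and 19199 CPM). Col1a1, a collagen chain of fibroblasts, had 3536, 5328 and 732 CPM in PDPN+ cells alone and at most 2.94 CPM ex vivo. Macrophage libraries of batch 3 stood apart, as described beside the results. In RNA from pooled cells, fewer cells of one type and less RNA per cell cannot be told apart.

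The genes lie at chr5:30013114-30019981 (Il6), chr11:4257557-4272514 (Lif), chr7:4772373-4782859 (Il11), chr11:4236420-4241026 (Osm), chr3:89864059-89913196 (Il6ra), chr13:112464070-112510086 (Il6st), chr15:6813577-6874969 (Osmr) and chr15:7090614-7197489 (Lifr) in GRCm38. Counts were made per gene model, so exons, introns and untranslated parts are not separated. Il11, Il6ra and Osmr are on the minus strand and the other members on the plus strand.

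The 250 bases upstream of a RefSeq transcription start (GRCm38.p6) were found for 7 of the 8 members. The windows of the 3 cytokines that were highest in PDPN+ cells are printed 5′ to 3′ on the gene's strand, because these 3 had higher levels in co-cultured than in lone PDPN+ cells in every batch. Il6 is at chr5:30012864-30013113, Lif at chr11:4257318-4257567 and the second of the Il11 starts at chr7:4778142-4778391. Capitals mark matches to 1 of the 5 motifs searched on both strands.

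Il6: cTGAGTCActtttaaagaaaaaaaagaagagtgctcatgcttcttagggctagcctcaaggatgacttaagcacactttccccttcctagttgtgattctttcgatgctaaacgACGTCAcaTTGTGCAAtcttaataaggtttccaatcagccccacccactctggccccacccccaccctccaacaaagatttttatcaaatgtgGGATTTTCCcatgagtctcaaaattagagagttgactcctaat

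Lif: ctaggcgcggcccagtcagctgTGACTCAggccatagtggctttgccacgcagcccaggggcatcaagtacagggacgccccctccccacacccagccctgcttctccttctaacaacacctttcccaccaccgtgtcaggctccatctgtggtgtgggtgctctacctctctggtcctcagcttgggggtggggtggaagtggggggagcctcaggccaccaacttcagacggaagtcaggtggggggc

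Il11: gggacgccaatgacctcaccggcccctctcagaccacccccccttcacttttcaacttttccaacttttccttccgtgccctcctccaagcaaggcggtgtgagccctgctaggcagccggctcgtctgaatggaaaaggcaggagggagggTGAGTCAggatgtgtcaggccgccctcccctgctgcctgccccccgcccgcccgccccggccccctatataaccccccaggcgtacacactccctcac

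The Il6 window held an AP-1 motif (TGANTCA) at bases -249 to -243 from the start, a CRE motif (ACGTCA) at -136 to -131, a C/EBP motif (TTNNGCAA) at -128 to -121 and an NF-kB motif (GGANTTTCC) at -43 to -35. Lif held an AP-1 motif at -228 to -222, and the second Il11 start held one at -98 to -92. No 2 matches overlapped. Among 32536 RefSeq promoter windows of the same length, AP-1 letters occurred in 6.73%, CRE letters in 6.50%, C/EBP letters in 9.57% and NF-kB letters in 1.07%. The STAT motif (TTCNNNGAA), present in 7.04% of windows, was not found in these windows, and none of the 5 motifs was found in the windows of the other members or the first Il11 start. A match describes letters and not a bound site.

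**Figure D1:**
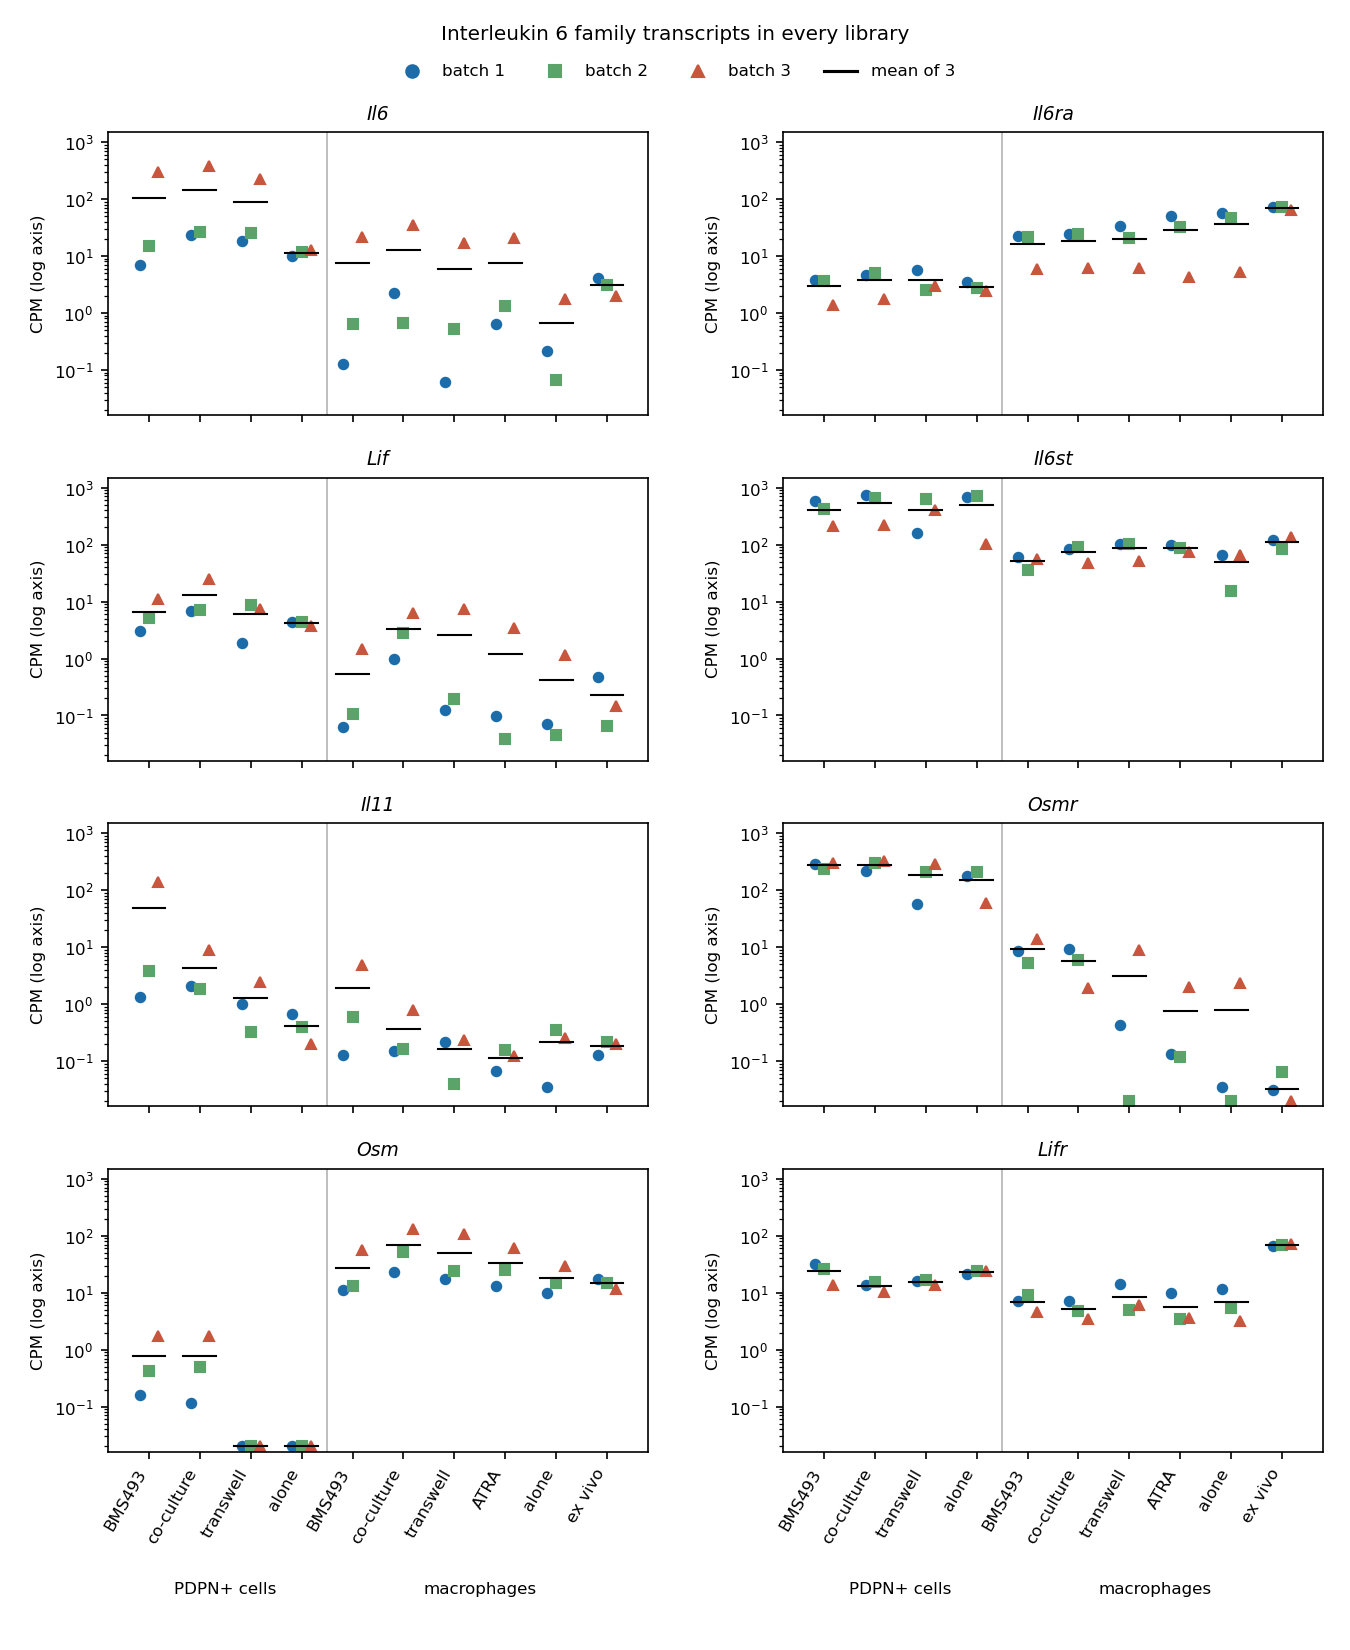
CPM of the 8 transcripts in every library (log axis), with 1 panel per gene, symbols for the batch and bars for the mean of 3. Libraries at 0 are drawn at the lower edge. Every macrophage library lies above every PDPN+ library for Osm and below every PDPN+ library for Osmr, Il6ra and Il6st overlap between the cell types, and Lifr is highest in ex vivo macrophages.

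The 2 cell types cultured alone held different members of the family. In PDPN+ cells Osm was lower and its receptor chain Osmr higher than in macrophages, Il6ra was lower, and Il6st and Lifr were higher. Of the 8 members, 5 passed an adjusted p of 0.05 in edgeR's quasi-likelihood test with Benjamini-Hochberg adjustment over all genes, against 38.9% of the 20987 genes tested.

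Among the receptor chains, Osmr had 180, 210 and 58.5 CPM in PDPN+ cells alone, against 0.0352, 0 and 2.35 CPM in macrophages alone. The groups were far apart in every batch, and the fitted log2 fold change was 7.60 ± 1.62 (SE, n = 3 each, edgeR adjusted p = 0.000657). Without the batch 3 library of lone macrophages, which held 64 of the 65 counts of that group, the fitted value was 13.09 (edgeR adjusted p = 0.000118) and rested on 1 count in macrophages. Il6st, the shared transducer, had 687, 725 and 103 CPM in PDPN+ cells and 66.4, 15.2 and 66.8 CPM in macrophages. The groups did not overlap, although the batch 3 PDPN+ library lay near the macrophages, and Il6st was higher in PDPN+ cells by 3.35 ± 0.67 on the log2 scale (edgeR adjusted p = 0.000328). Lifr, the chain for leukaemia inhibitory factor, had 21.2, 24.5 and 23.8 CPM in PDPN+ cells and 11.8, 5.44 and 3.20 CPM in macrophages. Every lone PDPN+ library exceeded every lone macrophage library (log2 fold change 1.77 ± 0.47, edgeR adjusted p = 0.00448).

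Il6ra, the interleukin 6 binding chain, ran the other way. It had 3.49, 2.72 and 2.40 CPM in PDPN+ cells alone and 57.6, 45.8 and 5.30 CPM in macrophages alone. The groups did not overlap, but the batch 3 macrophages were close to the PDPN+ cells, and Il6ra was lower in PDPN+ cells by a log2 fold change of -3.66 ± 0.86 (edgeR adjusted p = 0.0016). The edgeR adjusted p of Il6ra was 0.0523 without replicate 1 and 0.0844 without replicate 2. That of Lifr was 0.131 without replicate 2 and 0.0573 without replicate 3.

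Among the cytokines, Osm had no count in the 3 libraries of PDPN+ cells alone, against 9.82, 14.7 and 29.0 CPM in macrophages alone. With a floor of 3 counts over the group, Osm was at least 806-fold lower in PDPN+ cells (edgeR adjusted p = 2.81e-05). Floors cover counting error only.

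Il6 had 9.97, 11.8 and 12.6 CPM in PDPN+ cells alone and 0.211, 0.0669 and 1.73 CPM in macrophages alone, without overlap. Lif had 4.30, 4.41 and 3.65 CPM in PDPN+ cells and 0.0704, 0.0446 and 1.14 CPM in macrophages, again without overlap. Neither passed edgeR's test without a block (log2 fold change 4.15 ± 2.09 and edgeR adjusted p = 0.122 for Il6, and 3.33 ± 1.54 and 0.0918 for Lif). With the replicate number as a block, both were called, at 5.99 and an adjusted p of 0.000445 for Il6 and at 4.72 and 0.00361 for Lif, in a fit that called 8721 of the 20987 genes. DESeq2 called both without a block, among 7 of the 8 members (all but Il11) and 8877 of all genes. Il11 had 0.664, 0.389 and 0.203 CPM in PDPN+ cells and 0.0352, 0.357 and 0.258 CPM in macrophages, and these groups overlapped. Groups did not overlap for 7 of the 8 members, against 44.1% of all genes tested.

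Levels per transcript length, in the authors' size-factor-adjusted RPKM, set the chains beside each other. PDPN+ cells alone had 63.5, 67.8 and 9.81 RPKM of Il6st and 33.3, 39.3 and 11.2 RPKM of Osmr. They had 2.08, 2.43 and 2.42 RPKM of Lifr and 0.409, 0.323 and 0.291 RPKM of Il6ra. Per length, gp130 and the oncostatin M receptor chain thus exceeded the Lif and interleukin 6 binding chains in each of these libraries. Ex vivo macrophages had 11.2, 7.92 and 12.05 RPKM of Il6st, 8.56, 8.64 and 7.33 RPKM of Il6ra and 6.46, 6.78 and 7.003 RPKM of Lifr. Their Osmr was at most 0.0121 RPKM.

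**Figure D2:**
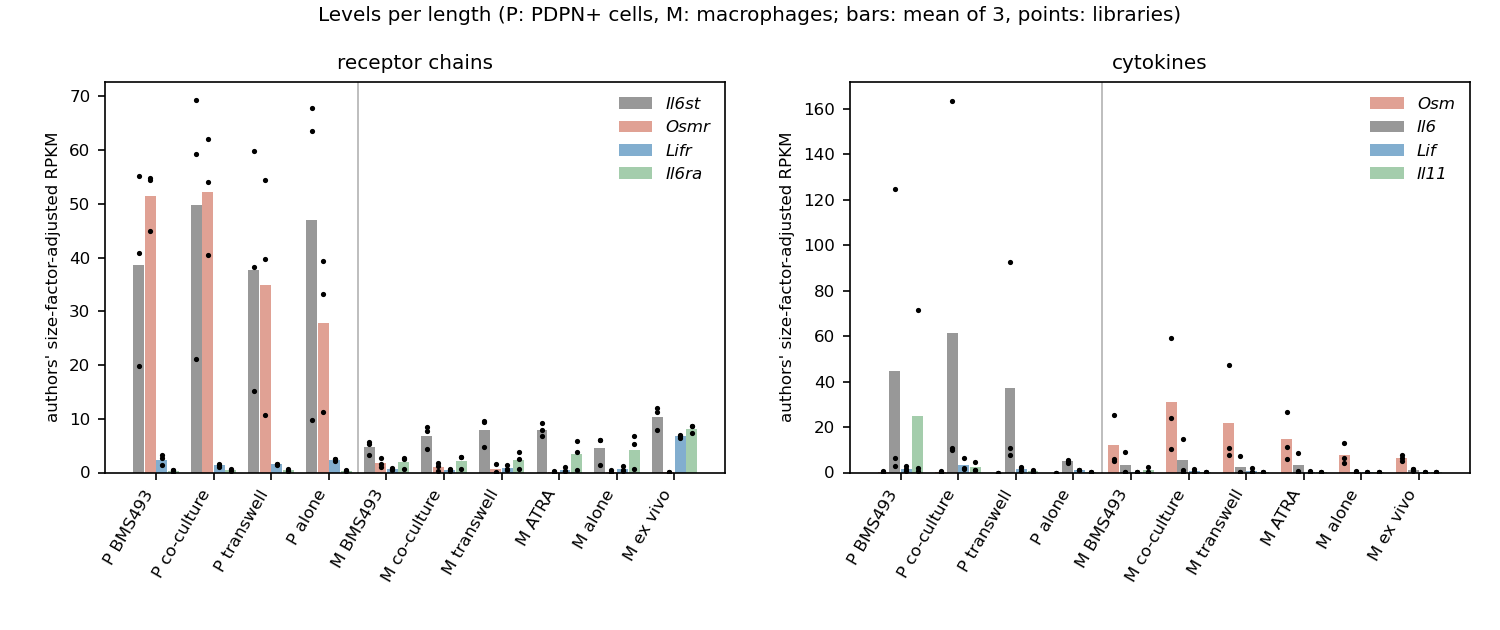
The authors' RPKM of the receptor chains and the cytokines in the 10 groups, with bars for the mean of 3 and points for libraries. By group mean, PDPN+ cells carry mostly Il6st and Osmr, and macrophages carry Il6st with Il6ra, joined ex vivo by Lifr. With BMS493, macrophages also carry Osmr (mean 1.72 RPKM, beside 1.92 for Il6ra). In batch 3, Osmr exceeded Il6ra in macrophages with BMS493 (2.61 and 0.687 RPKM) and in transwell (1.61 and 0.725 RPKM).

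Lifr, the chain that pairs with gp130 for Lif, fell in macrophages cultured alone relative to ex vivo cells. It was the only member called, 1 of 8 against 17.8% of the 17774 genes tested. Lifr had 11.8, 5.44 and 3.20 CPM in macrophages alone and 65.6, 68.2 and 73.0 CPM ex vivo. Every cultured library was below every ex vivo library (log2 fold change -3.33 ± 0.58, n = 3 each, edgeR adjusted p = 0.00108). Without replicate 2 in all groups, the adjusted p of Lifr was 0.0705. The 12 fibroblast markers summed to 421, 206 and 3266 CPM in macrophages alone and to 17021, 28657 and 19204 CPM ex vivo, nearly all of it Fn1, and their part in the change of Lifr was not tested.

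Il6ra had 57.6, 45.8 and 5.30 CPM in macrophages alone and 72.7, 72.8 and 64.0 CPM ex vivo. Il6st had 66.4, 15.2 and 66.8 CPM alone and 121, 84.6 and 133 CPM ex vivo. Il6 had 0.211, 0.0669 and 1.73 CPM alone and 4.08, 3.16 and 1.96 CPM ex vivo. The groups of all 3 did not overlap, with culture lower, but none was called in the fit without a block (edgeR adjusted p = 0.533 for Il6ra, 0.0800 for Il6st and 0.507 for Il6). With the replicate number as a block, 4 members were called, adding Il6 (log2 fold change -4.55, adjusted p = 0.0185), Il6ra (-1.68, 0.0287) and Il6st (-1.25, 0.0479) to Lifr. That fit called 4297 of the 17774 genes. Including Lifr, the groups did not overlap for 4 members, or for 33.1% of all genes.

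Osm did not separate the 2 groups, with 9.82, 14.7 and 29.0 CPM in macrophages alone and 17.5, 14.6 and 11.8 CPM ex vivo. Lif stayed at or below 1.14 CPM in both groups and Il11 at or below 0.357 CPM. Osmr had 65 counts in macrophages alone, 64 of them in the batch 3 library, and 4 counts in all ex vivo. The fibroblast markers were also highest in that library of lone macrophages (421, 206 and 3266 CPM), among them Dcn, the decorin gene (0.669, 0.402 and 88.2 CPM). Their part in the Osmr counts was not tested.

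Batch 3 separated the cultured macrophages. Its library was the highest of the 3 for Il6, Lif and Osm in all 5 cultured groups, and the lowest for Il6 and Osm ex vivo. It was also the lowest for Il6ra in all 6 macrophage groups. Other transcripts moved with it: Il1b, the interleukin 1 beta gene, had 2.36, 5.47 and 52.3 CPM in macrophages alone and 1.998, 2.92 and 219 CPM in co-culture. The 6 granulocyte markers summed to 4.54, 19.5 and 84.6 CPM in macrophages alone, nearly all of it S100a8 (4.22, 19.4 and 83.8 CPM). The part of these transcripts in the results was not tested.

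No family member passed the test in macrophages given retinoic acid. With ATRA, 0 of 8 members were called by edgeR, 0 had an unadjusted p under 0.05 and DESeq2 called 0, against 0.326% of all genes called by edgeR. Il6st had 99.3, 86.3 and 74.8 CPM with ATRA and 66.4, 15.2 and 66.8 CPM alone. These groups did not overlap, yet the difference missed the threshold (log2 fold change 0.81 ± 0.44, edgeR adjusted p = 0.755). The share of all genes without overlap was not counted for this comparison. Il6 had 0.628, 1.32 and 21.0 CPM with ATRA and 0.211, 0.0669 and 1.73 CPM alone, higher in each batch, with overlapping groups. Osm, at 13.3, 25.2 and 61.0 CPM with ATRA and 9.82, 14.7 and 29.0 CPM alone, showed the same order in each batch.

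In co-culture with PDPN+ cells, macrophages had more Osm in every batch, but the difference did not pass the threshold. Osm had 23.0, 52.3 and 133 CPM in co-culture and 9.82, 14.7 and 29.0 CPM alone. The groups overlapped, since the lowest co-culture library lay under the highest lone one (log2 fold change 1.93 ± 0.83, n = 3 each, edgeR adjusted p = 0.348). EdgeR called 0 of 8 members, with 1 at an unadjusted p under 0.05 and 0 by DESeq2, against 0.698% of all genes called. None of the 8 separated the groups completely, as 14.2% of all genes did.

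Lif had 0.969, 2.76 and 6.37 CPM in co-cultured macrophages and 0.0704, 0.0446 and 1.14 CPM in macrophages alone. It was higher in all 3 batches, with a small overlap (log2 fold change 3.01 ± 1.82, edgeR adjusted p = 0.525). Il6, at 2.24, 0.680 and 35.5 CPM in co-culture and 0.211, 0.0669 and 1.73 CPM alone, was also higher in each batch. Il6ra had 24.1, 24.2 and 6.10 CPM in co-culture and 57.6, 45.8 and 5.30 CPM alone, lower in 2 batches and not in batch 3. Osmr had 9.44, 5.996 and 1.90 CPM in co-culture and 0.0352, 0 and 2.35 CPM alone, with the same split between batches. Without replicate 3 Osmr (log2 fold change 8.68, edgeR adjusted p = 0.0118), Lif (4.87, 0.0323) and Il6ra (-1.17, 0.0398) were called, in a fit that called 930 of 18049 genes, against 124 in the fit of all batches. The Osmr value in that fit rests on lone macrophages with 1 and 0 counts.

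Transcripts that mark the partner cells were present in these sorted libraries. Their sums were also higher in macrophages with ATRA (1979, 2839 and 7250 CPM) than alone (421, 206 and 3266 CPM). The median fibroblast marker of 12, after its mean in macrophages alone was subtracted, reached 3.23%, 1.66% and 1.04% of its level in the PDPN+ library of the same batch. The markers ranged widely, from 1.28 to 40.9%, from -1.09 to 121% and from -5.21 to 262%. Without any subtraction, Osmr in co-cultured macrophages stood at 4.33%, 2.04% and 0.578% of its PDPN+ level, in the same order of batches. In batch 3, lone macrophages held more Osmr than co-cultured ones (2.35 and 1.90 CPM), so that share is no excess over lone cells. Lif stood at 14.1%, 38.6% and 25.8%, and Il6 at 9.68%, 2.57% and 9.24%, also without subtraction. The part of carried-over PDPN+ RNA in these levels was not tested.

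**Figure D3:**
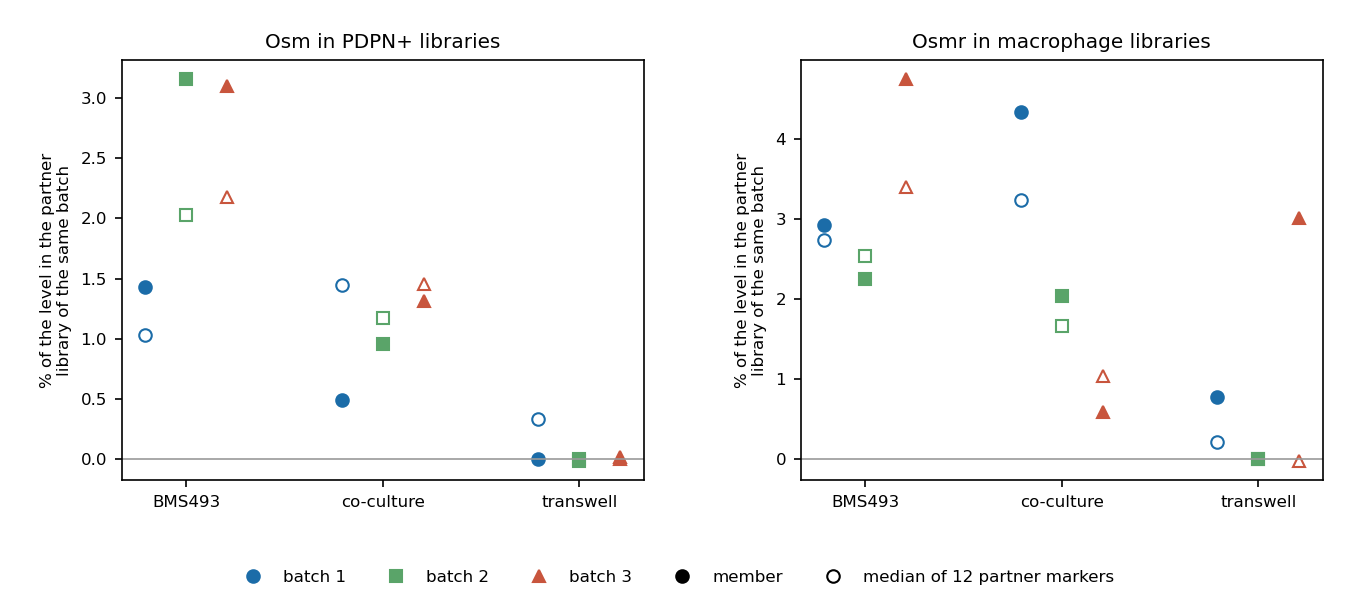
Level of Osm in PDPN+ libraries and of Osmr in macrophage libraries as a percentage of the partner cells' library of the same batch (filled), beside the median of 12 partner markers after subtraction of the cells-alone mean (open). In co-culture and with BMS493 the members lie at 0.496 to 4.75%, beside marker medians of 1.03 to 3.40%.

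Separated by a transwell membrane, macrophages had 17.4, 24.2 and 107 CPM of Osm and 9.82, 14.7 and 29.0 CPM alone. Osm was higher in each batch with overlapping groups (log2 fold change 1.46 ± 0.82, edgeR adjusted p = 0.601). Across the membrane 0 of 8 members were called by edgeR, with 0 at an unadjusted p under 0.05 and 0 by DESeq2, against 0.0281% of all genes. Osmr in transwell macrophages was 0.435, 0 and 8.82 CPM, so that the batch 3 library alone was above 1 CPM. There the median fibroblast marker, after subtraction, was -0.0296% of the PDPN+ level (range -2.22 to 177%). Osmr, without subtraction, stood at 3.01% of it.

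Co-culture and transwell macrophages differed in no called member (0 of 8 by edgeR, 0 at an unadjusted p under 0.05, 0 by DESeq2, against 0.0394% of all genes). Osm was higher in co-culture than in transwell in all 3 batches, by a fitted log2 fold change of 0.47 ± 0.81 (edgeR adjusted p = 1). Lif in batches 1 and 2 was 0.969 and 2.76 CPM in co-culture and 0.124 and 0.197 CPM in transwell. In batch 3 it was 6.37 CPM in co-culture and 7.35 CPM in transwell.

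Macrophages with BMS493 had less Lif and Osm than co-cultured macrophages in every batch, and no difference was called. Lif had 0.0629, 0.106 and 1.44 CPM with BMS493 and 0.969, 2.76 and 6.37 CPM in co-culture (log2 fold change -2.66 ± 1.79, edgeR adjusted p = 0.787). Osm had 11.1, 13.2 and 56.4 CPM with BMS493 and 23.0, 52.3 and 133 CPM in co-culture (-1.38 ± 0.82, adjusted p = 0.731). Both pairs of groups overlapped. Il6 had 0.126, 0.633 and 21.55 CPM with BMS493 and 2.24, 0.680 and 35.5 CPM in co-culture. In batch 2 it was about level, with 18 and 17 counts. By edgeR 0 of 8 members were called, with 1 at an unadjusted p under 0.05 (Il11) and 0 by DESeq2, against 0.850% of all genes.

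Against culture alone, BMS493 macrophages had Osmr at 8.55, 5.28 and 14.0 CPM, above 0.0352, 0 and 2.35 CPM alone in every library. The change was not called (log2 fold change 3.54 ± 1.77, edgeR adjusted p = 0.380). Here too, the share of all genes without overlap was not counted. Osmr, without subtraction, stood at 2.93%, 2.25% and 4.75% of the PDPN+ level. The median fibroblast marker, after subtraction, stood at 2.74%, 2.53% and 3.40%. The markers ranged from -4.97 to 66.8%, from -90.6 to 13.2% and from -28.1 to 21.5%. Il11 had 0.126, 0.598 and 4.94 CPM with BMS493 and 0.0352, 0.357 and 0.258 CPM alone (3.03 ± 1.11, edgeR adjusted p = 0.236). No member was called by edgeR (0 of 8), with 1 at an unadjusted p under 0.05 and 0 by DESeq2, against 0.737% of all genes. Without replicate 3, Osmr (log2 fold change 8.50, adjusted p = 0.00869) and Il6ra (-1.33, 0.0212) were called, in a fit that called 1279 of 18049 genes, against 131 in the fit of all batches. The Osmr value again rests on lone macrophages with 1 and 0 counts.

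In PDPN+ cells, co-culture with macrophages went with higher cytokine transcripts and lower Lifr in every library. The groups did not overlap for 6 of the 8 members, against 19.2% of the 19134 genes tested. None was called by edgeR, which called 0.0% of all genes in this comparison, whereas 5 members had an unadjusted p under 0.05 and DESeq2 called 1 (Osm). Of all 19134 genes, 1796 had an unadjusted p under 0.05 and DESeq2 called 346.

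Il6 had 23.1, 26.5 and 384 CPM in co-cultured PDPN+ cells and 9.97, 11.8 and 12.6 CPM in PDPN+ cells alone. All co-culture libraries were higher, by about as much in batches 1 and 2 and far more in batch 3 (log2 fold change 3.64 ± 1.58, n = 3 each, edgeR adjusted p = 0.525). Lif had 6.87, 7.14 and 24.6 CPM in co-culture and 4.30, 4.41 and 3.65 CPM alone (1.64 ± 0.68, adjusted p = 0.525). Its groups did not overlap and batch 3 again held the highest level.

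Il11, a cytokine of fibroblasts and other stromal cells, had 2.10, 1.84 and 9.01 CPM in co-culture and 0.664, 0.389 and 0.203 CPM alone. It was higher in each library (log2 fold change 3.36 ± 1.49, edgeR adjusted p = 0.525). Il1a, which encodes interleukin 1 alpha, was singled out from the lists after its values were seen and was not called. It had 1.28, 6.70 and 446 CPM in co-culture and 1.25, 0.493 and 0.0185 CPM alone, about level in batch 1 and far higher in batch 3. Its part in the cytokine levels was not tested.

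Osm had 5, 26 and 74 counts in co-cultured PDPN+ cells (0.114, 0.499 and 1.75 CPM) and none alone, at least 35.7-fold higher against a floor of 3 counts (edgeR adjusted p = 0.348, DESeq2 adjusted p = 0.00367). These levels were 0.496%, 0.954% and 1.31% of Osm in the macrophages of the same batch. The median macrophage marker of 12, less its mean in PDPN+ cells alone, stood at 1.45%, 1.17% and 1.45% there. The 12 markers summed to 1721 to 2450 CPM in co-culture and to 86.4 to 140 CPM alone, with none at 0, and the part of macrophage RNA in the Osm counts was not tested.

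Of the receptor chains, Lifr had 13.9, 15.4 and 10.4 CPM in co-cultured PDPN+ cells and 21.2, 24.5 and 23.8 CPM alone. All co-culture libraries were lower (log2 fold change -0.82 ± 0.32, edgeR adjusted p = 0.525). Osmr had 218, 294 and 329 CPM in co-culture and 180, 210 and 58.5 CPM alone, again without overlap (0.91 ± 0.55, adjusted p = 0.553). Il6st, at 745, 646 and 224 CPM in co-culture and 687, 725 and 103 CPM alone, overlapped. So did Il6ra, at 4.66, 5.01 and 1.79 CPM in co-culture and 3.49, 2.72 and 2.40 CPM alone. Without replicate 3 in all groups, edgeR also called 0 of the 8.

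The makeup of the PDPN+ libraries also differed. The 8 mesothelial markers summed to 1040, 122 and 18.9 CPM in co-culture and to 2517, 2099 and 1582 CPM alone. The 12 fibroblast markers summed to 47758, 50220 and 17755 CPM in co-culture and to 25352, 29192 and 8130 CPM alone. The part of these marker differences in the family's levels was not tested. Co-culture replicates 2 and 3 came from 3730 and 2148 cells.

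Transwell culture gave 18.05, 25.4 and 220 CPM of Il6 in PDPN+ cells, against 9.97, 11.8 and 12.6 CPM alone. Its groups did not overlap (log2 fold change 2.95 ± 1.53, edgeR adjusted p = 1). Lifr had 16.3, 16.4 and 13.5 CPM in transwell and 21.2, 24.5 and 23.8 CPM alone, also without overlap (-0.56 ± 0.32, adjusted p = 1). These were the 2 members without overlap, against 5.18% of all genes. Osm had no count in either group. By edgeR 0 of 8 members were called, with 0 at an unadjusted p under 0.05 and 0 by DESeq2, and edgeR called 0.0% of all genes. The 8 mesothelial markers summed to 1627, 1333 and 134 CPM in transwell and to 2517, 2099 and 1582 CPM alone. The 12 fibroblast markers summed to 14239, 23902 and 28336 CPM in transwell and to 25352, 29192 and 8130 CPM alone, and the part of these differences in the family's levels was not tested.

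Between co-culture and transwell PDPN+ cells, Il6, Il11 and Osmr were higher in co-culture in all 3 batches and Lifr was lower in all 3. Each of the 4 had overlapping groups. Il11 had 2.10, 1.84 and 9.01 CPM in co-culture and 0.992, 0.326 and 2.48 CPM in transwell (log2 fold change 1.73 ± 1.38, edgeR adjusted p = 0.805). Osm, absent from the transwell counts, was at least 33.9-fold higher in co-culture (adjusted p = 0.687, DESeq2 adjusted p = 0.00856). By edgeR 0 of 8 were called, with 1 at an unadjusted p under 0.05, against 0.00523% of all genes.

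With BMS493, PDPN+ cells had the highest Il11 of the series. Il11 had 1.32, 3.84 and 141 CPM with BMS493 and 2.10, 1.84 and 9.01 CPM in co-culture, higher in 2 of 3 batches (log2 fold change 3.48 ± 1.46, edgeR adjusted p = 1). Against 0.664, 0.389 and 0.203 CPM in cells alone it was higher in every library (6.84 ± 1.73, adjusted p = 0.161). In the fit over all 30 libraries the adjusted p was 0.0169. Without the batch 3 BMS493 library the log2 fold change over cells alone was 2.64 (edgeR adjusted p = 0.583). In that library the 8 mesothelial markers summed to 2.56 CPM.

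Lif had 3.09, 5.19 and 11.2 CPM with BMS493 and 6.87, 7.14 and 24.6 CPM in co-culture, lower in all 3 batches (log2 fold change -0.99 ± 0.66, edgeR adjusted p = 1). Il6, at 6.87, 14.8 and 297 CPM with BMS493 and 23.1, 26.5 and 384 CPM in co-culture, was likewise lower in all 3. Lifr had 32.3, 26.1 and 13.6 CPM with BMS493 and 13.9, 15.4 and 10.4 CPM in co-culture, higher in all 3 with overlap (0.87 ± 0.32, adjusted p = 1). Against co-culture, edgeR called 0 of 8, with 2 at an unadjusted p under 0.05 and 0 by DESeq2, against 0.0157% of all genes.

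Against culture alone, 3 members had no overlap with BMS493 (Il11, Osm and Osmr), against 18.7% of all genes. Osmr had 292, 235 and 296 CPM with BMS493 and 180, 210 and 58.5 CPM alone (log2 fold change 0.88 ± 0.55, edgeR adjusted p = 0.556). Osm had 6, 17 and 107 counts with BMS493 and none alone, at least 43.6-fold higher (adjusted p = 0.193, DESeq2 adjusted p = 0.00214). Its share of the macrophage level was 1.43%, 3.15% and 3.09%, where the median macrophage marker stood at 1.03%, 2.03% and 2.17%. By edgeR 0 of 8 were called, with 2 at an unadjusted p under 0.05 and 1 by DESeq2, against 0.240% of all genes.

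**Figure D4:**
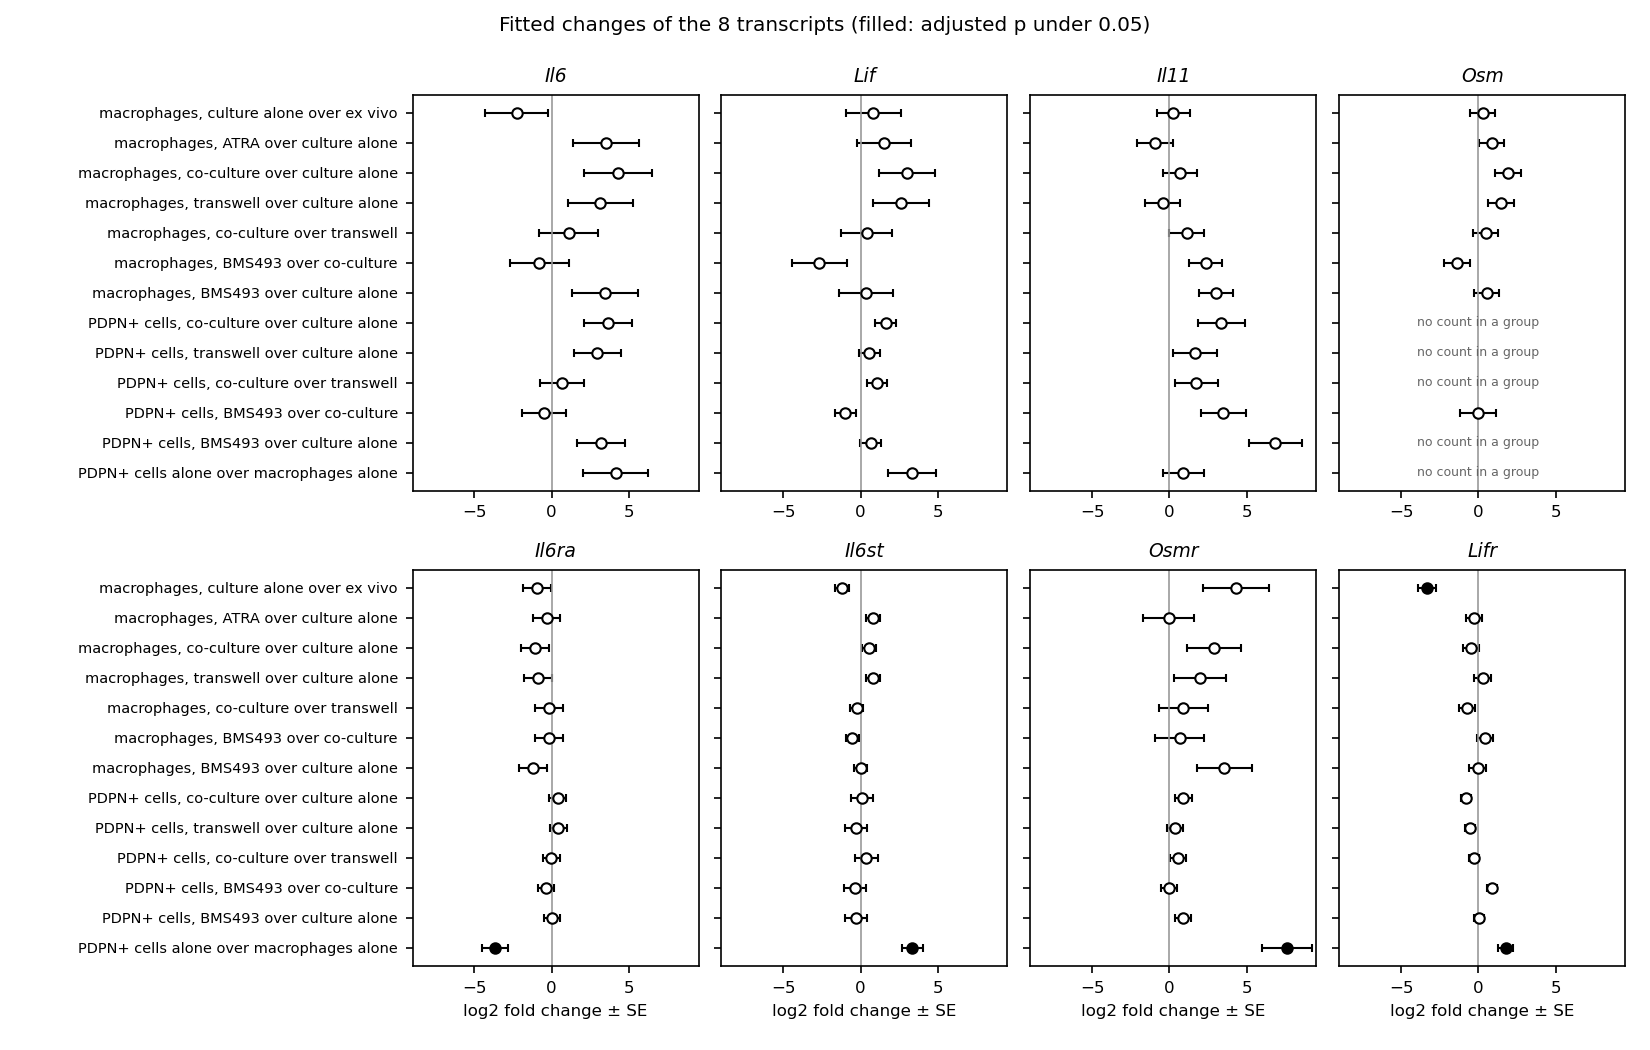
Fitted log2 fold changes with SE for the 8 transcripts in 13 comparisons, filled where the adjusted p was under 0.05. Filled points are Lifr in cultured macrophages and Il6ra, Il6st, Osmr and Lifr between the cell types, and Osm is not drawn where a group had no count.

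The responses of the 2 cell types were then compared by an interaction term. For co-culture, the response of Osm was larger in PDPN+ cells than in macrophages by a fitted value that rests on the empty PDPN+ group (edgeR adjusted p = 0.341), and with the replicate block its adjusted p was 0.0299, in a fit that called 377 of 20987 genes. DESeq2 also called Osm (adjusted p = 0.0453). In co-cultured PDPN+ libraries Osm stood at 0.496%, 0.954% and 1.31% of the macrophage level, beside median macrophage markers of 1.45%, 1.17% and 1.45%. The part of macrophage RNA in this Osm response was not tested. By edgeR without the block 0 of 8 were called, with 1 at an unadjusted p under 0.05, against 0.986% of all genes. Without replicate 3, the response of Osmr was lower in PDPN+ cells than in macrophages (log2 difference -8.52, adjusted p = 0.0106), in a fit that called 323 of 21120 genes. That value rests on lone macrophages with 1 and 0 Osmr counts. The part of PDPN+ RNA in the Osmr of co-cultured macrophages was not tested. For transwell, 0 of 8 were called by edgeR, with 0 at an unadjusted p under 0.05 and 0 by DESeq2, and 0.0% of all genes were called.

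Ordered by mean level, the members fell into patterns by cell type. Osmr was highest in the 4 PDPN+ groups, where its lowest library (56.7 CPM) was above the highest macrophage library (14.05 CPM). Il6st also had its 4 highest means in PDPN+ cells, but the batch 3 library of PDPN+ cells alone, at 103 CPM, lay below ex vivo macrophages at 121 and 133 CPM. Osm was highest in the 6 macrophage groups, where its lowest library (9.82 CPM) was above the highest PDPN+ library (1.75 CPM). Il6ra had its 6 highest means in macrophages, but the batch 3 libraries of ATRA and lone macrophages, at 4.23 and 5.30 CPM, lay among PDPN+ libraries that reached 5.65 CPM. Lifr was highest ex vivo (mean 69.0 CPM), followed without overlap by PDPN+ cells with BMS493 (24.0 CPM). Neighbouring groups in the order of Lif and Il11 overlapped throughout, and for Il6 only ex vivo and lone macrophages did not.

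Other genes of the pathway were read from 7 lists holding 62 genes, of which 58 were tested within each cell type. In macrophages cultured alone relative to ex vivo cells, 9 rose and 2 fell, 11 of 58 against 17.8% of all genes. Ebi3, a subunit of interleukin 27 and 35, had 51.7, 98.3 and 41.8 CPM alone and 7.85, 5.90 and 9.07 CPM ex vivo (log2 fold change 3.08 ± 0.31, edgeR adjusted p = 1.63e-05). Il27ra, the interleukin 27 receptor, fell to 3.31, 2.95 and 6.73 CPM alone, against 46.1, 42.2 and 46.8 CPM ex vivo (-3.39 ± 0.75, adjusted p = 0.00589). Clcf1, another gp130 cytokine, had 0.951, 2.57 and 4.16 CPM alone and 0, 0.0216 and 0 CPM ex vivo. Tnf, an inducer of Il6, had 7.36, 9.37 and 24.98 CPM alone and 1.01, 0.432 and 1.18 CPM ex vivo.

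Between PDPN+ cells and macrophages alone, 61 listed genes were tested, and 11 were higher and 16 lower in PDPN+ cells, 27 of 61 against 38.9% of all genes. The higher ones included the gp130 ligand gene Ctf1 (15.4, 15.7 and 34.0 CPM in PDPN+ cells and 0, 0.0446 and 0 CPM in macrophages). They also included Il1r1, the signalling interleukin 1 receptor, with 141, 188 and 81.3 CPM in PDPN+ cells and 0.528, 0.625 and 4.53 CPM in macrophages (log2 fold change 6.19 ± 1.11, edgeR adjusted p = 0.000114). The lower ones included Adam17, the protease that sheds Il6ra, with 99.8, 99.8 and 26.1 CPM in PDPN+ cells and 349, 178 and 355 CPM in macrophages (-1.97 ± 0.37, adjusted p = 0.000182).

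Elsewhere few listed genes were called. With BMS493 relative to culture alone, Ebi3 rose in PDPN+ cells, as 1 of 58 listed genes against 0.240% of all genes. It had 0.608, 1.25 and 0.766 CPM with BMS493 and 0.0208, 0 and 0 CPM alone (edgeR adjusted p = 0.0413). Ebi3 had 24.9, 34.3 and 23.6 CPM in macrophages with BMS493. The co-culture response was larger in PDPN+ cells for Ebi3, Ptpn6 and Tnf, 3 of 61 against 0.986% of all genes. All 3 were much higher in macrophages. In 10 further comparisons edgeR called 0 listed genes, with 2 to 11 at an unadjusted p under 0.05. Of all 17774 to 20987 genes tested there, edgeR called 0 to 151, and 426 to 2282 had an unadjusted p under 0.05.

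Socs3 and Saa3, 2 targets of STAT3, were singled out from the lists after their values were seen. Socs3, the feedback inhibitor of gp130, had 152, 172 and 144 CPM in co-cultured and 22.6, 34.9 and 77.6 CPM in lone macrophages, without overlap (log2 fold change 1.77 ± 0.62, edgeR adjusted p = 0.235). In transwell macrophages it had 185, 163 and 132 CPM, also above every lone library. With BMS493 it had 21.4, 33.0 and 185 CPM, near the lone cells in batches 1 and 2 and not in batch 3. Saa3, an acute phase gene, had 80.9, 233 and 2578 CPM in macrophages with BMS493 and 2565, 1836 and 2604 CPM in co-culture, with a large difference in batches 1 and 2. In PDPN+ cells it had 1615, 534 and 1513 CPM in co-culture and 14793, 9100 and 9510 CPM in transwell, without overlap (-3.24 ± 0.95, adjusted p = 0.784). Neither gene was called in these comparisons.

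By likeness over the 10 group means of log2(CPM + 1), the gene nearest to Osm was Jak3, a cytokine receptor kinase (Pearson r = 0.996), followed by Rhoh and Fcgr1. Nearest to Osmr were Mical2 (0.995), Adam12 and Pakap, and nearest to Il6st were Zbed3 (0.991), Prickle1 and Ttc23. Il11 was nearest to Tnn (0.998), Cdsn and Gldn, with a BMS493 mean of Il11 that rests on batch 3. Il6ra was nearest to Dgkg (0.987), Lifr to Gtf3c5 (0.972), Il6 to Gtf2ird1 (0.970) and Lif to Lpp (0.964). The group means share libraries and cell type, so these values are descriptions among 10370 genes.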

How the data were processed

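PolyA RNA from 30 sorted-cell libraries was measured. Each deposited table holds a count per gene model, of reads that aligned uniquely per the file headers. It also holds the authors' RPKM, adjusted by size factors per the file headers, used only to compare levels between genes. Alignment used GSNAP to GRCm38, per the submitters' processing notes; the sources used here do not give versions, annotation or strand setting, and overlapping antisense transcripts cannot be told apart.

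TMM-scaled counts passing filterByExpr by group entered the quasi-likelihood test of edgeR 4.0.16, run in R 4.3.3 with limma 3.58.1. One fit held 18 macrophage libraries (17774 genes), one held 12 PDPN+ libraries (19134 genes) and one all 30 (20987 genes) for contrasts between cell types. Benjamini-Hochberg adjustment ran over all genes tested, and calls were made below an adjusted p of 0.05. CPM used totals times TMM factors over all 30 libraries. The procedure was tested on data simulated for co-culture over culture alone. In macrophages it recovered 26% of genes with a true log2 fold change of 1, 78% at 2 and 94% at 4. In PDPN+ cells it recovered 2% at 1, 24% at 2 and 84% at 4, so an uncalled member may still have changed. The changed genes were drawn only from genes above a minimum mean level, and no batch difference was simulated. These rates therefore do not cover members with low counts. Comparisons that use the same lone-culture libraries share them and are not independent.

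The alternatives were DESeq2 1.42.0, its size factors, no filter on low counts, a replicate block, a fit over all 30 libraries and leaving out libraries. Replicate numbers equal the labelled batches and so pair the libraries: same-numbered macrophage libraries deviated together with a median correlation of 0.186 (28 of 45 pairs over 0.1), and PDPN+ libraries with 0.11 (10 of 18 pairs). In the first batch a label of the 2 co-culture libraries carries the other cell type, and the titles, which their markers fit, were used. Replicate libraries were checked and none repeated another.

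Of gene models, 192 had no symbol (0.0358% of counts). Members, lists and tests were chosen with earlier results of these data known. All 8 members are named, up to 4 called genes per list and comparison could be named, and the 3 genes of highest correlation per member are given, among genes with at least 10 CPM in some group. Promoter letters come from RefSeq. The result of 1 listed gene is not reported here.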

Additional observations from a re-analysis of the deposited data

How the results depend on the processing

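Of 310 values of single members under the alternatives, for pairs of member and comparison called in at least 1 setting, 280 kept direction and side of the threshold, 5 fell out of it, 25 came under it and 0 reversed. Of 98 pairs never called, 55 changed sign in some setting, so their directions are not firm.

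The number of called members moved in these cases. For macrophages alone over ex vivo, the replicate block called 4, DESeq2 called 2, and leaving out libraries gave 0 to 2, against 1 as reported. For macrophages in co-culture over alone, leaving out libraries gave 0 to 3, and for BMS493 over alone 0 to 2, against 0. DESeq2 called 1 (Osm) in PDPN+ cells for co-culture over alone, co-culture over transwell and BMS493 over alone, and the fit over all 30 libraries called 2 (Il11 and Osm) in the last. Between the cell types alone, leaving out libraries gave 3 to 6, against 5, and the replicate block and DESeq2 called 7 each. For the co-culture response difference, the replicate block and DESeq2 called 1 each and leaving out libraries gave 0 to 1, against 0. The lone-macrophage library of batch 3 mattered for Lif between the cell types, called without it at an adjusted p of 0.0263 by edgeR. The replicate block changed no other call, and the cause of these shifts was not tested. DESeq2 gave no adjusted p for Il6 and Il11 in some PDPN+ comparisons. Low counts limit Il11, Lif and Osmr in macrophages, where several libraries held fewer than 10 counts.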
